A study of Mus musculus with 10 samples.

Results

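Cartpt and Cck, which encode neuropeptide precursors found widely in the brain, were measured together with the CCK receptor genes Cckar and Cckbr in single amacrine cells of the mouse retina. The genes were chosen by name, with earlier results of these data known, and are 4 of the 27933 gene symbols of the count table. For each peptide gene the share of a cell's unique molecular identifiers (UMIs, 1 for each RNA molecule caught) was taken in every cell. A cell was put in the high class of a peptide at 1% of its UMIs or more, in the middle class from 0.1% to under 1%, and in the class below at under 0.1%. Transmitter class was set by gates that use no member gene. The Gad gate held cells with at least 2 UMIs of Gad1 plus Gad2, the enzymes that make GABA, and 0 of Slc6a9, the glycine transporter GlyT1, and the Slc6a9 gate was the reverse. Of the other cells, those with fewer than 2 UMIs on both sides were called low in both, and the rest mixed.

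Cartpt encodes the precursor of the CART peptides, which are cut out by prohormone convertases, stored in dense core vesicles and released on strong firing. They act on feeding and reward circuits of the brain, and their receptor is still debated. Cck encodes the precursor of cholecystokinin, a gut hormone and one of the most abundant peptides of cortical interneurons, which needs a sulphated tyrosine and an amidated end for full activity at the receptor CCK1R, the product of Cckar. CCK2R, the product of Cckbr, also binds the non-sulphated form and gastrin, and both receptors signal mainly through Gq and phospholipase C. In the retina, peptides mark subsets of amacrine cells, the mostly inhibitory interneurons between bipolar and ganglion cells.

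The cells came from retinas of Chx10-cre-GFP mice at postnatal day 19, dissociated with papain. Per the labels' protocols, living cells (positive for the dye Calcein Blue) were kept if they carried no GFP, no CD133 (the product of Prom1) and no CD73 (the product of Nt5e), and were put into droplets with the 10x Genomics Chromium 3′ v2 chemistry. The labels give the same strain, age and sort protocol for all 10 libraries and set them apart by batch alone: batch 1 has 1 library (library 1), batch 2 has 5 (libraries 2 to 6) and batch 3 has 4 (libraries 7 to 10). The number of animals behind a library is not in the labels. The p-values therefore measure only how far libraries differ, and that spread may be technical.

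In all there were 32523 cells with 171257947 UMIs, with 950 to 4738 cells and 6302659 to 26028492 UMIs in a library, with a median of 4210 UMIs per cell. The Gad gate held 16415 cells (50.5%, median 5411 UMIs), the Slc6a9 gate 4556 (14.0%, median 3664 UMIs), the cells low in both 5351 (16.5%, median 1861 UMIs) and the mixed cells 6201 (19.1%, median 6152 UMIs). In 2451 gated cells the transmitter gene stood exactly at 2 UMIs. The Slc6a9 gate took 8.13% to 11.3% of the cells in the libraries of batch 2 and 21.2% to 23.2% in those of batch 3. Of all cells, 1860 shared their barcode sequence with a cell of another library. Pax6, a defining amacrine factor, had a median of 4 UMIs in the Cartpt-high cells of the Gad gate, whereas the median cell of the Cartpt and Cck classes checked had 0 UMIs of Rbpms, Grm6 and Rlbp1, which mark ganglion cells, ON bipolar cells and Müller glia. A median of 0 does not show that they were level: over pooled cells Grm6 was at 23.1 CPM in the Cartpt-high cells of the Gad gate, 6.16% of which had a UMI, and at 7.28 CPM in those below 0.1% Cartpt. The summed level of 10 bipolar markers was 351 ± 145 CPM (158 to 604) in the former and 265 ± 41.9 CPM (206 to 324) in the latter, with overlapping ranges and no marker at 0, and their part in the results was not tested.

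Cartpt lies on chromosome 13 (99898489 to 99901091, minus strand), Cck on chromosome 9 (121489824 to 121495694, minus strand), Cckar on chromosome 5 (53697776 to 53707705, minus strand) and Cckbr on chromosome 7 (105425731 to 105470898, plus strand), in GENCODE release M21 of GRCm38. All 4 are protein coding. The sequences before the start sites of the peptide genes are shown because both genes are known in other tissues as targets of CREB, the factor that acts through cyclic AMP response elements (CREs). The Cartpt site is 30 bases long (RefSeq, GRCm38.p6, chr13:99900777-99900806, minus strand), begins 123 bases before the RefSeq start and lies inside the 5′ UTR of a longer GENCODE transcript. The Cck sequence is the 250 bases before the RefSeq start (GRCm38.p6, chr9:121495695-121495944, minus strand). Capitals mark the motifs, read 5′ to 3′: in Cartpt the full CRE TGACGTCA, which starts 112 bases before the RefSeq start, and in Cck the E-box CACGTG, 66 bases before it, and the CRE-like TGCGTCA, 49 bases before it.
Cartpt site: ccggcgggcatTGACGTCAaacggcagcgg
Cck upstream: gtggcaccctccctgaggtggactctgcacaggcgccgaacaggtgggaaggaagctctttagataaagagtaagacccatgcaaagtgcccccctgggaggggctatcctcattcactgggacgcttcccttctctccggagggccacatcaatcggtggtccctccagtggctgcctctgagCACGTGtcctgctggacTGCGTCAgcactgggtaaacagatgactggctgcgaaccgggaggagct
The motifs were picked after these sequences had been seen. Over 32851 RefSeq promoters of 250 bases, searched on both strands, 1.55% held TGACGTCA, 1.75% TGCGTCA and 6.02% CACGTG. A match describes letters and is not evidence of binding in these cells.

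Cartpt was highest in cells of the Gad gate. In all cells of a library, Cartpt took from 1494 to 2508 CPM (a gene's UMIs scaled to the total, where 10000 CPM is 1% of all UMIs), with a median of 1945 and a mean of 1909 ± 318 CPM (SD, n = 10 libraries, as for all values that follow unless another n is given). In the Gad gate the level ran from 1854 through a median of 2457 to 3254 CPM, with a mean of 2480 ± 446, and in the Slc6a9 gate from 143 through 202 to 966 CPM, with a mean of 463 ± 366. The gates did not overlap in any library. Cells low in both had 624 ± 429 CPM and mixed cells 1557 ± 408 CPM. The Slc6a9 gate was lower than the Gad gate in 10 of 10 libraries, by a log2 change of -2.62 ± 0.22 (SE; adjusted p = 1.46e-09, edgeR's quasi-likelihood test with the library as a block). In this comparison 61.2% of the 11253 genes tested were called, so a call by itself says little about a gene. The log2 change was -3.58 in batch 2 alone and -1.68 in batch 3 alone, and this difference is taken up with the batches.

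Cck was also lower in the Slc6a9 gate but was highest in the cells low in both. Its level per library ran from 56.7 through 79.4 to 111 CPM, with a mean of 79.2 ± 17.0. It was 82.0 ± 20.6 CPM in the Gad gate (59.5 to 123) and 40.2 ± 18.1 CPM in the Slc6a9 gate (13.0 to 69.7), and the gates overlapped across libraries but not within any of them. Cells low in both had 247 ± 125 CPM, from 81.6 through 225 to 449, and mixed cells 50.1 ± 8.67 CPM. The Slc6a9 gate was lower than the Gad gate in 10 of 10 libraries, with a log2 change of -1.09 ± 0.13 (adjusted p = 3.06e-07, edgeR).

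**Figure D1:**
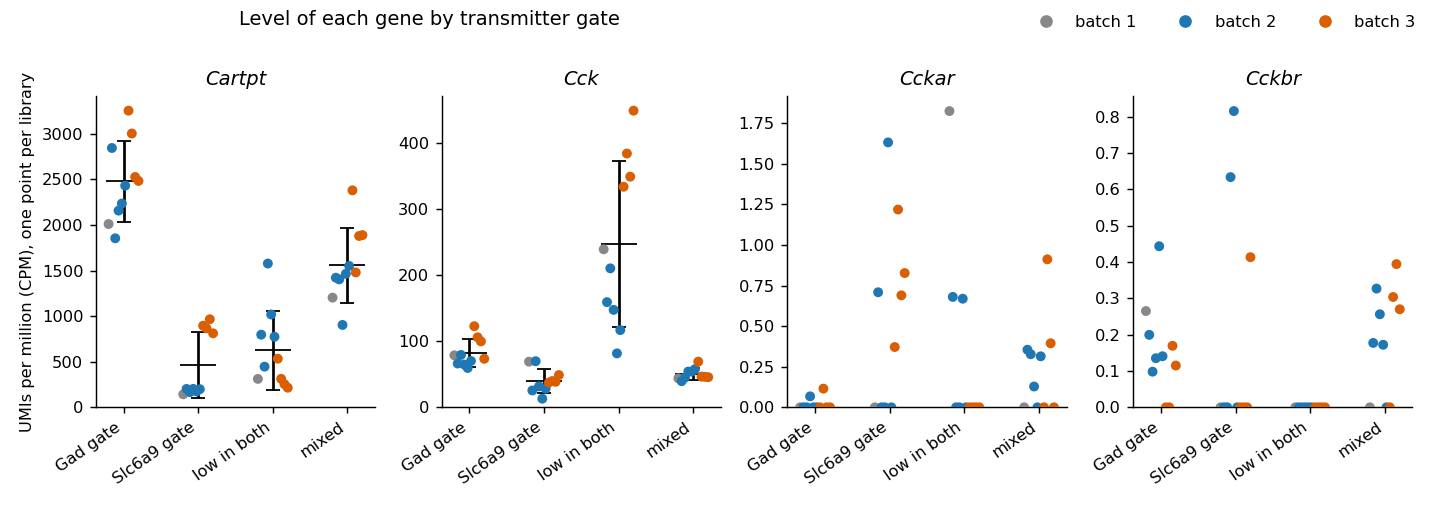
Levels of Cartpt, Cck, Cckar and Cckbr in CPM (y axes) by transmitter gate (x axis). Each point is 1 library, grey for batch 1, blue for batch 2 and orange for batch 3, and the bars of Cartpt and Cck show the mean ± SD of 10 libraries; Cartpt is highest in the Gad gate, the batch 3 points of its Slc6a9 gate stand apart from the rest, and Cck is highest in the cells low in both.

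Most Cartpt RNA sat in few cells. Of 326351 Cartpt UMIs, 271002 (83.0%) came from the 1148 cells of the high class, 12.2% from the 2687 cells of the middle class and 4.79% from the 28688 cells below. The high class made up 3.45% ± 0.47 of a library's cells (2.77% to 4.16%), and the high and middle classes together 12.1% ± 3.25 (8.53% to 16.3%). The largest share in a cell was 17.4% of its UMIs, the largest count 2377 UMIs. In all, 486 cells gave 5% to 10% of their UMIs to this gene and 2 gave more than 10%. The classes are ranges of a share and not cell types: 47 cells lay at 0.9% to under 1% and 45 at 1% to 1.1%, with medians of 54 and 46 Cartpt UMIs. At the lower threshold 248 cells lay at 0.09% to under 0.1% and 215 at 0.1% to 0.11%, with medians of 2 and 3 UMIs, so a cell near that line differs from the next by a single molecule.

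Cck never reached the high class. All 13094 Cck UMIs were spread over 3522 cells (10.8%), and no cell of 32523 gave 1% of its UMIs to Cck, a count of 0 that allows a share of up to 0.00922%, which covers counting error only. The largest share was 0.723% and the largest count 44 UMIs. The middle class held 892 cells, 2.91% ± 0.818 of a library's cells (1.75% to 4.03%), with 55.5% of all Cck UMIs. Around its threshold 105 cells lay at 0.09% to under 0.1% and 94 at 0.1% to 0.11%.

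**Figure D2:**
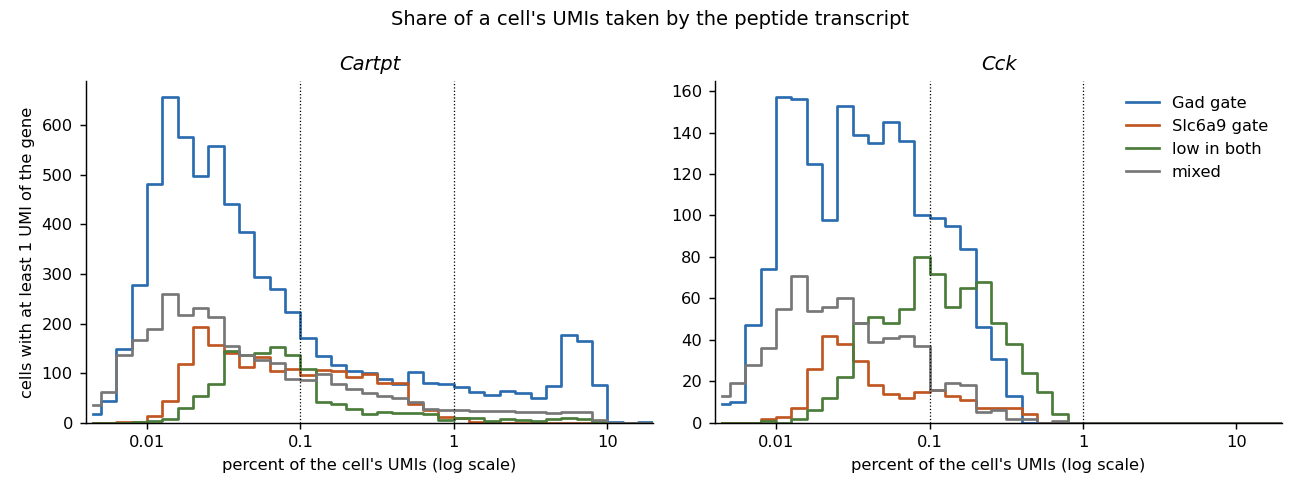
Number of cells (y axis) by the percent of their UMIs taken by Cartpt or Cck (x axis, log scale), for cells with at least 1 UMI of the gene and by transmitter gate. The dotted lines stand at 0.1% and 1%; Cartpt has a separate mode of Gad gate cells above 1% and Cck ends below it.

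A UMI of Cartpt was found in many cells that hold little of it. AII amacrine cells, glycinergic cells of the rod pathway gated here on Slc6a9, Gjd2 and Prox1, served as cells that should lack the peptides. Cartpt was at 126 ± 55.4 CPM in them (64.1 through 107 to 261), which is 6.57% ± 2.40 of the level of the whole library. A Cartpt UMI was found in 28.9% of 1076 AII-gated cells (median 4655.5 UMIs), and in 41.3% of the Gad gate and 41.1% of the Slc6a9 gate at medians of 5411 and 3664 UMIs. After each cell was thinned to 2000 UMIs, and shallower cells were left out, these shares were 14.9%, 25.5% and 32.8%. Only 21 AII-gated cells reached the middle class and 0 the high class. In starburst cells, the cholinergic type gated on Chat and Slc18a3, Cartpt was more variable (72 to 915 CPM, mean 277 ± 279), and 3 of 505 cells were in the high class. Cck was at 26.0 ± 12.6 CPM in AII-gated cells, where 5.95% of the cells had a UMI.

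Cartpt-high cells were mostly of the Gad gate. Of the 1148 cells, 861 (75.0%) met the Gad gate, 209 (18.2%) were mixed, 66 low in both and 12 of the Slc6a9 gate, and the share in the Gad gate was 75.3% ± 4.01 per library (70.6% to 82.0%). Among cells with at least 2000 UMIs, the Gad gate took 76.3% of 986 Cartpt-high cells and 54.6% of all such cells. The median share of Cartpt was 4.85% in the Gad gate, 2.77% in the mixed cells and 2.70% in the cells low in both. The middle class was split otherwise, with 1052 of 2687 cells (39.2%) in the Gad gate, 731 (27.2%) in the Slc6a9 gate, 588 mixed and 316 low in both.

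Within the Gad gate, cells high in Cartpt carried a large set of other genes. Cartpt itself had set the classes and was removed before the fit. Of 10401 genes tested over 10 libraries, 1617 were higher and 1682 lower in the high class than in the class below (31.7% called, edgeR, adjusted p under 0.05). Kit, the receptor tyrosine kinase for stem cell factor, had 156 ± 27.3 CPM against 0.205 ± 0.204, a log2 change of 9.42 ± 0.18 (adjusted p = 3.06e-35), and was higher in 10 of 10 libraries. The solute carrier gene Slc35d3 rose by 9.05 ± 0.12 on the log2 scale (246 ± 49.9 against 0.429 ± 0.210 CPM), and Adra2b, an alpha-2 adrenergic receptor, by 8.48 ± 0.27 (51.9 ± 11.2 against 0.124 ± 0.123 CPM). All 3 were higher in the Cartpt-high cells of 10 of 10 libraries. Tnfsf8 (6.96), Ip6k3 (6.79), Rprm (6.37) and Iyd (5.88) followed. Among the strongest decreases, Tpbg fell by 3.27, the cell-cycle inhibitor gene Cdkn1c by 2.89 and the copine gene Cpne4 by 2.85.

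Other peptides moved in both directions in these cells. Vip, which encodes vasoactive intestinal peptide, was at 3199 ± 1927 CPM in the Cartpt-high cells against 47.6 ± 11.7 below, a log2 change of 5.89 ± 0.14 (adjusted p = 9.3e-32, edgeR). Cbln4, a cerebellin that organises synapses, rose by 3.42 ± 0.13, but the sign turned to -1.23 (adjusted p = 0.000519, edgeR) when cells with Vip at 0.1% or more were left out of both classes. The tachykinin gene Tac2 fell by 3.01 ± 0.24 (27.3 ± 52.9 against 257 ± 40.7 CPM). Cck was at 18.9 ± 21.7 CPM in the Cartpt-high cells against 87.2 ± 22.3 CPM below, lower in 9 of 10 libraries, with a log2 change of -1.98 ± 0.22 (adjusted p = 7.71e-10, edgeR). Of 11 genes of the neuropeptide list tested, 2 rose, Vip and Cbln4, and 7 fell, with a median log2 change of -1.06 against 0.01 over all genes tested. Here and in the counts that follow, this list also holds the synapse organiser gene Cbln4 and the growth factor gene Igf1.

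Dense core vesicle genes were mostly higher in Cartpt-high cells of the Gad gate, and processing genes less so. Of 15 dense core vesicle genes 12 rose and 2 fell (93.3% called, against 31.7% of all genes tested), with a median log2 change of 0.32. Syt10, a vesicular calcium sensor, rose by 5.65 ± 0.10 (194 ± 26.8 against 3.91 ± 0.897 CPM), the monoamine transporter gene Slc18a2 by 3.18 ± 0.17 and Rab27b, a small GTPase of secretory vesicles, by 1.44 ± 0.07. Of 11 processing genes 5 rose and 1 fell (54.5% called), with a median of 0.09. The convertase gene Pcsk1 rose by 0.81 ± 0.17 (18.7 ± 6.26 against 11.0 ± 1.76 CPM), Pam, which amidates peptide ends, by 0.77 ± 0.09 and Qpct, a glutaminyl cyclase, by 0.54 ± 0.09. Of 8 peptide receptor genes tested 2 rose and 3 fell (62.5% called). The somatostatin receptor gene Sstr2 rose by 4.08 ± 0.07 (321 ± 55.9 against 19.1 ± 2.68 CPM), while the CRH receptor genes Crhr2 and Crhr1 fell by 2.97 and 2.34.

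Of 43 transcription factor genes tested in the same cells, 14 rose and 21 fell, with a median log2 change of -0.32. Nfia rose by 4.52 ± 0.12 (365 ± 92.8 against 15.8 ± 8.78 CPM) and the POU factor gene Pou3f3 by 3.86 ± 0.09 (218 ± 41.7 against 15.1 ± 2.25 CPM), and Tfap2e fell by 3.20 ± 0.31. Of 11 transmitter genes 3 rose and 6 fell, and the cholinergic genes Chat and Slc18a3 fell by 3.17 and 2.76. Of 12 genes of CCK receptor signalling 3 rose and 5 fell, among them the protein kinase C gene Prkca (-1.10 ± 0.09) and the phospholipase gene Plcb1 (-1.05 ± 0.11). The summed level of the ganglion cell marker list was 220 ± 51.6 CPM in the Cartpt-high cells and 592 ± 19.9 below, and that of the Müller glia list 1011 ± 61.2 and 1528 ± 128. Their part in the results was not tested.

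Among the Cartpt-high cells of the Gad gate, those with a Pou3f3 UMI and those with Vip at 0.1% or more hardly met. Of 861 cells, 497 (57.7%; 59.2% ± 7.68 per library) had a Pou3f3 UMI, with a median Cartpt share of 5.58%. Vip at 0.1% or more was found in 113 cells (13.1%, exact 95% binomial interval 10.9% to 15.6%; 14.1% ± 5.98 per library), with a median Cartpt share of 1.34%. Only 5 cells had both, and 256 (29.7%) had neither, at a median Cartpt share of 4.35%. Kit went the same way as Pou3f3: a Kit UMI was found in 410 cells (47.6%, median Cartpt share 5.74%), of which 3 had Vip at 0.1% or more. Of the 14502 Gad gate cells below 0.1% Cartpt, 18 had a Kit UMI, 37 a Slc35d3 UMI and 854 (5.89%) a Pou3f3 UMI, so by number more Pou3f3 cells lay below 0.1% Cartpt than among the 497 of the high class.

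Cartpt-high cells with Vip at 0.1% or more were compared with all those under it, with or without a Pou3f3 UMI, within 5 libraries, 83 cells against 476, after Cartpt and Vip had been removed from the table. Of 3606 genes 305 were higher and 314 lower in the cells with Vip (17.2% called, edgeR). Cbln4 had 2002 ± 336 CPM in the cells with Vip and 6.65 ± 6.10 without (n = 5), a log2 change of 8.12 ± 0.18 with an adjusted p of 1.14e-36 by edgeR's quasi-likelihood test. Cbln2 rose by 3.58 ± 0.12 (1632 ± 308 against 136 ± 52.2 CPM), the cone-type channel subunit gene Cngb3 by 4.81 ± 0.31, and the secretion factor gene Cadps2 by 4.00 ± 0.53. Car8 fell by 5.98 ± 0.31 (9.17 ± 13.0 against 603 ± 52.6 CPM), Rprm by 4.95 ± 0.27, Slc35d3 by 4.51 ± 0.37 and Pou3f3 by 3.77 ± 0.35. The convertase gene Pcsk2 was higher in the cells with Vip (268 ± 81.3 against 45.1 ± 13.3 CPM, log2 change 2.55 ± 0.22), and Qpct lower (-1.53 ± 0.30). Of 14 dense core vesicle genes 2 were higher and 5 lower in the cells with Vip (50% called). Syt10 (-2.31 ± 0.27), Syt7 (-1.80 ± 0.22), Scg2 (-1.03 ± 0.13) and Rab27b (-0.93 ± 0.24) were among the lower ones. The GABA transporter gene Slc6a11 rose by 1.74 ± 0.16. Sstr2 fell by 0.68 ± 0.17 (adjusted p = 0.0025), a call that was lost with DESeq2 (adjusted p = 0.0669), in batch 2 alone (adjusted p = 0.196, edgeR) and without library 10 (adjusted p = 0.169, edgeR).

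Cartpt was next measured in cells gated on single marker genes. In Gad gate cells with at least 2 UMIs of Pou3f3, Cartpt was at 26622 ± 9797 CPM (15290 through 22144 to 45638), and 304 of these 614 cells were in the high or middle class, 286 of them high. In Vip-gated cells (Vip at 0.1% or more, in any gate) it was at 5676 ± 1656 CPM (3636 through 5644 to 9378), with 670 of 943 cells (71.0%, interval 68.0% to 73.9%) at 0.1% or more but 154 at 1%. The lowest Pou3f3 library stood above the highest Vip library. Of 54 cells gated on the growth hormone-releasing hormone gene Ghrh, 53 were at 0.1% or more, with a pooled level of 6891 CPM. Cells gated on Th ranged from 88.6 to 9064 CPM over 9 libraries, with 19 of 301 cells at 0.1% or more. Cells gated on Tac1 (640 ± 299 CPM), Tac2 (483 ± 333), Npy (475 ± 189), Maf (528 ± 364) and Slc17a8 (813 ± 851) had means below that of whole libraries, and their levels overlapped one another.

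**Figure D3:**
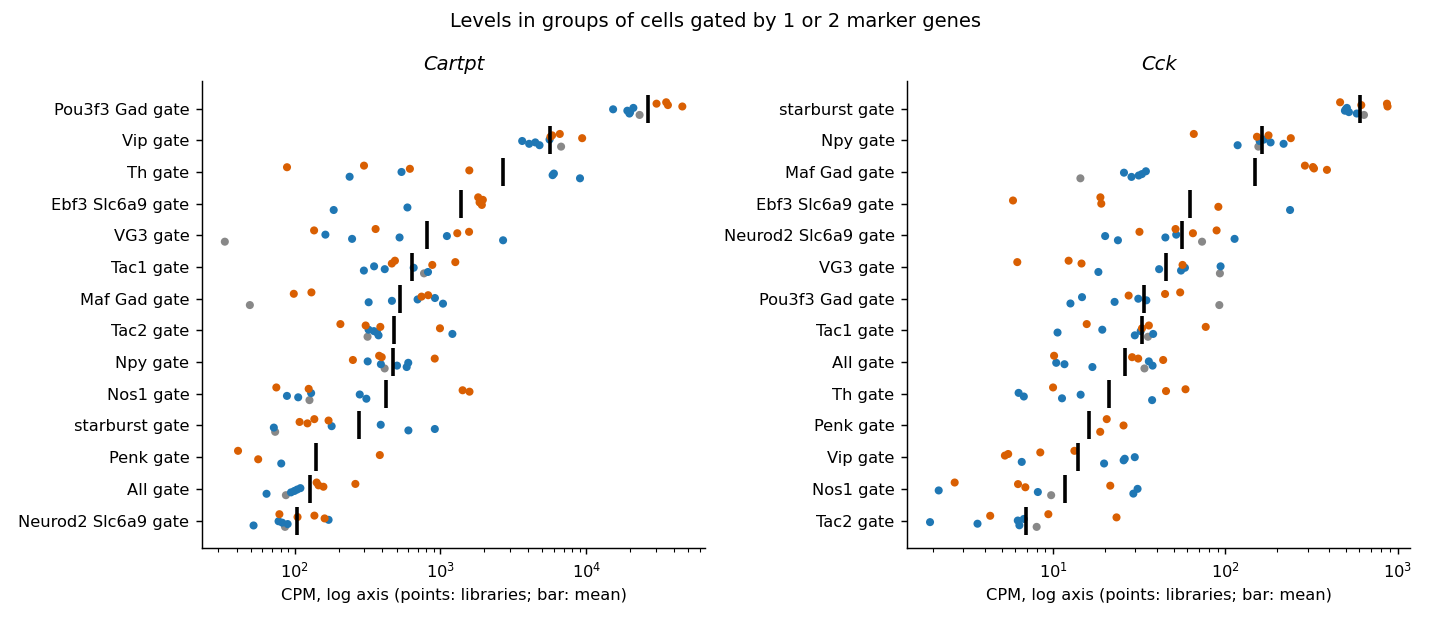
Levels of Cartpt and Cck in CPM (x axes, log scale) in groups of cells gated on marker genes (y axis). Each point is 1 library with at least 10 cells, grey for batch 1, blue for batch 2 and orange for batch 3, libraries at 0 are not drawn on the log axis, and the bar is the mean over libraries, those at 0 included; Cartpt is highest in the Pou3f3 and Vip groups and Cck in the starburst group, while the batch 3 points of Cck in the Maf group stand apart.

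The middle class of Cartpt in the Gad gate was another mix of cells. Of 10471 genes 1083 rose and 1161 fell against the class below (21.4% called, edgeR, 10 libraries). Vip had the largest rise among the genes named by the rule, from 47.6 ± 11.7 to 3928 ± 1440 CPM (log2 change 6.29 ± 0.08, adjusted p = 9.56e-45, edgeR), followed by Ghrh with 133 ± 65.2 against 1.78 ± 0.768 CPM (6.05 ± 0.19) and Cbln4 with 536 ± 118 against 27.5 ± 5.19 CPM (4.25 ± 0.07). Nfia (3.70), Plscr1 (3.09), Cadps2 (3.0), Etv1 (2.78), the nuclear receptor gene Nr4a2 (2.65), Eno3 (2.40) and Sstr2 (2.30) also rose. The extrasynaptic GABA receptor subunit gene Gabrd fell from 59.9 ± 5.31 to 6.89 ± 4.48 CPM (-2.91 ± 0.16), Tpbg by 2.45, Igfbp4 by 2.16 and the neurofilament gene Nefh by 2.12.

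Of the 1052 cells of that class, 355 (33.7%, against 1.23% below 0.1% Cartpt) had Vip at 0.1% or more, at a median Cartpt share of 0.443%. Npy reached 0.1% in 122 cells (11.6%, against 9.83%, which is close) and Ghrh in 29 (2.76%, against 0.0069%). Cbln4 did so in 241 cells (22.9%), Tac1 in 176 (16.7%) and Tac2 in 51. Shares of these 3 genes below 0.1% Cartpt are not reported here. A Pou3f3 UMI was found in 48 cells (4.56%, against 5.89% below 0.1% Cartpt) and a Kit UMI in 9 (0.856%, against 0.124%). Of 12 neuropeptide genes tested 5 rose and 5 fell, of 16 dense core vesicle genes 8 rose and 5 fell (median log2 change 0.24), of 11 processing genes 4 rose and 0 fell (0.20), and of 44 transcription factor genes 10 rose and 17 fell. Cck was at 57.7 ± 43.9 CPM against 87.2 ± 22.3 CPM (log2 change -0.59 ± 0.17, adjusted p = 0.00598, edgeR); the call was lost without Vip cells (adjusted p = 0.665), with DESeq2 (0.0956) and in batch 2 alone (0.0557).

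Among the cells low in both, Vip, Kit, Pou3f3 and Sstr2 were again higher with Cartpt. In 3 libraries with at least 10 cells per class, 43 Cartpt-high cells against 2112 below gave 74 higher and 80 lower genes of 8068 (1.91% called, edgeR; 92 and 53 with DESeq2's size factors in place of TMM), and the median log2 change over all genes was -0.32. With any 1 of the 3 libraries (2, 4 or 6) left out, 76 to 98 genes were called. Vip (5.97 ± 0.28; 3560 ± 2502 against 40.4 ± 15.6 CPM, n = 3), Kit (5.78 ± 0.72), Syt10 (5.02 ± 0.65), the noncoding RNA gene Pantr1 (4.32 ± 0.48), Pou3f3 (4.19 ± 0.72), Cbln4 (4.17 ± 0.48), Nr4a2 (4.16 ± 0.41) and Sstr2 (3.71 ± 0.62) rose, and Npy (-4.51 ± 0.78) and Tac1 (-4.26 ± 0.61) fell. The call of Sstr2 was lost without library 4 (adjusted p = 0.623, edgeR), without the top 5% of cells by UMIs (0.320) and without cells with other-class markers (0.193), and that of Npy with DESeq2 (adjusted p = 0.115). Cck did not pass the test there (49.9 ± 61.2 against 148 ± 22.7 CPM, log2 change -1.54 ± 0.52, adjusted p = 0.126, edgeR), but did without library 4 (-3.32, adjusted p = 0.0295) and with a gate of 3 UMIs (-2.24, adjusted p = 0.000181). In the middle class, 228 of 4599 genes were called (4.96%, edgeR, 9 libraries): Vip rose by 5.73 ± 0.19, Plscr1 by 2.79 ± 0.28, Npy by 2.59 ± 0.19 and Cbln2 by 2.28 ± 0.13, and Krt24 fell by 3.24 ± 0.48, Ppp1r17 by 2.71 ± 0.17, the retinoid-binding gene Crabp1 by 2.48 ± 0.16 and Cck by 1.62 ± 0.22 (77.1 ± 98.8 against 258 ± 137 CPM, adjusted p = 1.87e-08; 0.0786 with no block for the library). Batch 3 alone kept 21.1% of the 228 calls and batch 2 alone 64.5%. The 316 Cartpt-middle cells low in both were shallow, with a median of 1422.5 UMIs and a median Cartpt share of 0.164%. The part of free Cartpt RNA in this class was not tested.

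In the Slc6a9 gate, cells with Cartpt in the middle class had another set of genes. Over 9 libraries, 728 cells against 3675 below gave 808 higher and 953 lower genes of 8371 (21% called, edgeR). Most of the middle-class cells came from batch 3, with 94 to 204 in a library against 11 to 24 in batch 2. Of the 1761 calls, 91.4% were also made in batch 3 alone but 18.7% in batch 2 alone. Without cells with a Prom1 UMI 19.4% of them were made. The relaxin-family receptor gene Rxfp3 rose by 3.05 ± 0.18 (79.3 ± 35.8 against 9.03 ± 3.85 CPM), the oestrogen receptor gene Esr1 by 2.62 ± 0.22 (57.3 ± 23.5 against 7.10 ± 4.15 CPM), the growth factor gene Igf1 by 2.51 ± 0.09 (333 ± 95.1 against 49.6 ± 30.6 CPM, adjusted p = 3e-70, edgeR) and Tfap2c by 2.38 ± 0.09 (383 ± 118 against 60.2 ± 41.6 CPM). Tfap2b, its close relative, went the other way and fell by 3.72 ± 0.10 (163 ± 154 against 1086 ± 68.7 CPM). The dopamine receptor gene Drd4 fell by 4.77 ± 0.22, Mapk12 by 4.75 ± 0.21, Stac2 by 4.58 ± 0.21, the secretin gene Sct by 4.22 ± 0.26 (8.35 ± 19.3 against 87.2 ± 9.20 CPM), the IP3 receptor gene Itpr1 by 3.99 ± 0.32 and the vesicular glutamate transporter gene Slc17a8 by 3.85 ± 0.25.

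Of 7 genes of the neuropeptide list tested in that gate 1 rose, the growth factor gene Igf1, and 4 fell, with Penk falling by 1.85 ± 0.26. The median log2 change of the list was -1.02 against -0.01 over all genes. Of 9 processing genes 1 rose, Pam by 0.88 ± 0.08, and 5 fell, among them Pcsk2 by 0.87 ± 0.12. The call of Penk was lost in batch 2 alone (log2 change -1.46, adjusted p = 0.296, edgeR) and without cells with a Prom1 UMI (-0.63, adjusted p = 0.623). That of Pcsk2 was lost in the same settings (-0.69, adjusted p = 0.137, and -0.82, adjusted p = 0.0675, edgeR). Of 13 dense core vesicle genes 3 rose and 2 fell, among them Ptprn (1.17 ± 0.12) and Scg3 (1.04 ± 0.08). Of 31 transcription factor genes 11 rose and 14 fell. Cck was at 32.7 ± 49.3 against 40.2 ± 16.4 CPM with a log2 change of -1.02 ± 0.22 (adjusted p = 6.87e-05, edgeR); its direction turned in batch 2 alone (0.42), and the call was lost with DESeq2 (adjusted p = 0.248), with no block (0.134) and without cells with a Prom1 UMI (0.635). The ganglion cell marker list summed to 1099 ± 276 CPM in the middle class and 339 ± 53.7 below. Ebf3, a member of the list, was at 153 ± 50.2 against 35.8 ± 12.4 CPM (n = 9). Over pooled cells of the middle class Pou4f2 was at 0, and Rbpms and Slc17a6 at 1.93 and 1.16 CPM. The neurofilament genes Nefl (275 ± 79.7 against 117 ± 9.25 CPM) and Nefm (79.8 ± 21.4 against 28.4 ± 5.20 CPM) rose in 9 of 9 libraries. The amacrine list summed to 7702 ± 312 and 7020 ± 183 CPM. Their part in the result was not tested.

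Cartpt in the Slc6a9 gate split the batches. Cartpt-middle cells made up 2.13% of that gate in batch 1, 4.61% ± 1.15 (2.61% to 5.52%, n = 5) in batch 2 and 26.1% ± 1.71 (24.5% to 27.7%, n = 4) in batch 3. In the Gad gate the same shares were 5.66%, 6.54% ± 1.22 and 6.29% ± 0.230, and the batches overlapped. The split was not confined to the Slc6a9 gate. In the mixed cells the shares were 9.15%, 5.83% ± 1.27 (4.04% to 7.62%) and 16.4% ± 1.17 (15.3% to 17.8%). Batches 2 and 3 did not overlap there. In the cells low in both they were 1.68%, 6.14% ± 1.47 and 6.19% ± 0.586, and batches 2 and 3 overlapped. The Cartpt level of the Slc6a9 gate ran from 167 to 202 CPM in batch 2 and from 812 to 966 CPM in batch 3, with no overlap. Batch 3 over batch 2 gave a log2 change of 2.24 ± 0.06 within the Slc6a9 gate (adjusted p = 7.72e-28, edgeR, 30.8% of genes called) and of 0.34 ± 0.09 within the Gad gate (adjusted p = 0.00574, 48.5% called). The difference between these changes, tested as an interaction, was 1.89 ± 0.06 on the log2 scale (adjusted p = 3.79e-40, edgeR, 8.19% of 11733 genes called).

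Prom1, whose product is the sort antigen CD133, moved with this result. Its level in whole libraries was 17.7 ± 1.82 CPM in batch 2 and 71.9 ± 5.40 CPM in batch 3, and in the Slc6a9 gate 92.7 ± 8.34 and 286 ± 8.50 CPM, while in the Gad gate it was 3.37 and 2.26 CPM. In the mixed cells it was 25.3 ± 1.63 and 107 ± 25.4 CPM, and in the cells low in both 29.2 ± 8.49 and 35.8 ± 10.8 CPM. A Prom1 UMI was found in 79.6% of the Cartpt-middle cells of the Slc6a9 gate, and the level of Prom1 in them was 544 ± 78.4 CPM in batch 2 and 662 ± 43.3 CPM in batch 3, against 72.9 and 153 CPM in the cells below. The share of the gate with a Prom1 UMI was 19.8% ± 1.28 in batch 2 and 42.7% ± 1.73 in batch 3. Among cells with no Prom1 UMI, Cartpt-middle cells made up 2.16% ± 1.0 in batch 2 and 7.92% ± 0.879 in batch 3, and among those with one 14.5% ± 3.60 and 50.5% ± 4.26. The batches did not overlap in either set. When cells with a Prom1 UMI were left out, the interaction was 0.56 ± 0.10 (adjusted p = 0.000129, edgeR). Nt5e, the gene of the other sort antigen, was at 0.841 and 0.644 CPM.

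**Figure D4:**
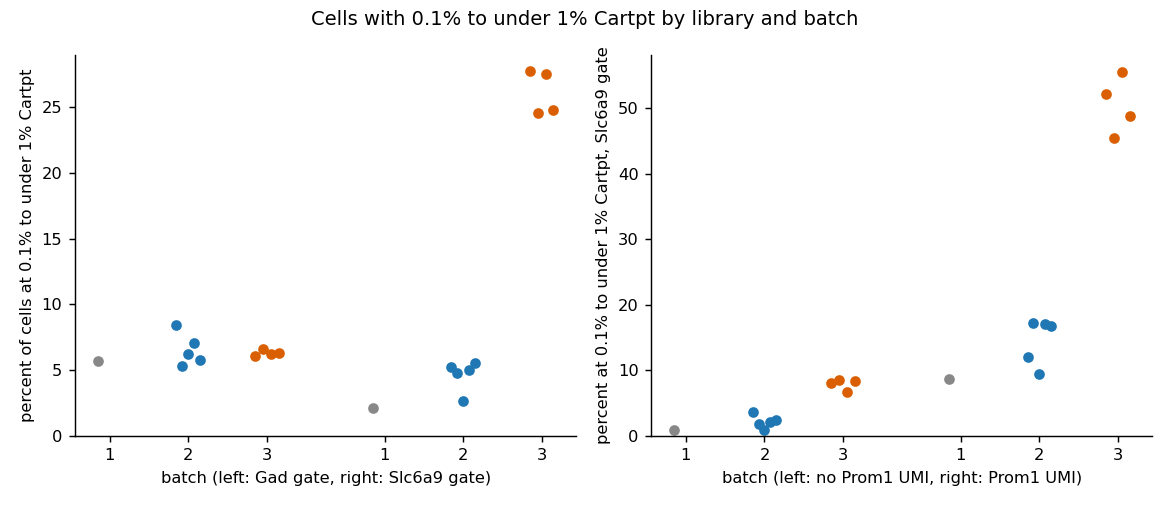
Percent of cells in the Cartpt middle class (y axis) by batch (x axis), each point 1 library. The left panel sets the Gad gate beside the Slc6a9 gate, and the right panel splits the Slc6a9 gate into cells without and with a Prom1 UMI; batch 3 stands above batch 2 in the Slc6a9 gate and in both of its subsets, and not in the Gad gate.

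Over whole libraries both peptide genes were higher in batch 3. Cartpt had 1777 ± 221 CPM in batch 2 (n = 5) and 2178 ± 238 CPM in batch 3 (n = 4), with overlap between them, a log2 change of 0.34 ± 0.08 (adjusted p = 0.00166, edgeR). Cck had 65.6 ± 7.21 and 94.8 ± 12.5 CPM, with no overlap, a log2 change of 0.59 ± 0.08 (adjusted p = 7.47e-06, edgeR). In this comparison 54.9% of 14123 genes were called. The share of cells with Cartpt at 0.1% or more rose from 9.86% ± 0.859 to 15.8% ± 0.344, a difference of 5.91 points (two-sided exact permutation p = 0.0159, the smallest that 5 against 4 libraries allow; adjusted p = 0.0317 over 4 shares). The share at 1% or more fell from 3.71% ± 0.393 to 3.08% ± 0.389, by 0.62 points (exact permutation p = 0.0317, adjusted 0.0423), and the ranges overlapped. That call was lost at 0.5% (-0.24 points, adjusted exact permutation p = 0.571), at 2% (-0.46, adjusted p = 0.0847) and after thinning to 2000 UMIs (-0.59, adjusted p = 0.106). In the Gad gate the Cartpt-high share was 5.18% ± 0.484 and 5.23% ± 0.475, and in the cells low in both 1.53% ± 0.509 and 0.366% ± 0.293. For Cck the share at 0.1% or more rose from 2.24% ± 0.484 to 3.68% ± 0.371, by 1.44 points (exact permutation p = 0.0159, adjusted 0.0317). Whatever else differed between the batches cannot be told apart from batch here.

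Most Cck cells met the Gad gate or were low in both. Of 892 cells with Cck at 0.1% or more, 368 (41.3%) met the Gad gate, 390 (43.7%) were low in both, 69 were mixed and 65 of the Slc6a9 gate. Among cells with at least 2000 UMIs, those of the Gad gate were 339 of 697 Cck cells (48.6%) and those low in both 242 (34.7%), against 54.6% and 9.20% of all cells. Of the Cck cells low in both (median 2210.5 UMIs), 64.4% had a UMI of Slc32a1, the vesicular transporter shared by GABA and glycine, 29.5% one of Slc6a9 and 11.5% one of Gad1. Their share of the cells low in both was 9.50% in batch 1, 4.85% ± 1.60 in batch 2 (3.15% to 7.03%) and 14.0% ± 2.02 in batch 3 (12.4% to 16.9%), and batches 2 and 3 did not overlap.

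Within the cells low in both, Cck cells were compared with the cells below 0.1% Cck. Of 4457 genes 429 rose and 485 fell (20.5% called, edgeR, 10 libraries, 390 against 4961 cells). The contactin gene Cntn6 had 459 ± 75.3 against 52.0 ± 18.0 CPM, a log2 change of 3.25 ± 0.13 (adjusted p = 1.15e-32, edgeR), and 57.2% of the Cck cells had a Cntn6 UMI. The orphan receptor gene Gpr149 rose by 3.07 ± 0.22 (151 ± 56.2 against 19.5 ± 10.5 CPM), Nckap5 by 2.86 ± 0.11 (728 ± 154 against 108 ± 32.1 CPM), the transcription factor gene Nfix by 2.62 ± 0.11 (1145 ± 262 against 203 ± 76.0 CPM) and the kainate receptor subunit gene Grik2 by 2.21 ± 0.18 (163 ± 56.6 against 36.3 ± 11.3 CPM). All 4 rose in 10 of 10 libraries. Slc17a8 (-4.48 ± 0.38), Vip (-4.19 ± 0.29), Car3 (-4.13 ± 0.32), Tac2 (-3.45 ± 0.32), Tac1 (-3.05 ± 0.21) and Tfap2b (-2.43 ± 0.17) fell.

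Most, but not all, tested genes of the peptide machinery were lower in these Cck cells. Of 5 neuropeptide genes tested 0 rose and 5 fell, with a median log2 change of -3.05 against 0.01 over all genes, Cartpt among them (192 ± 223 against 654 ± 434 CPM, -1.65 ± 0.14, adjusted p = 2.02e-16, edgeR, lower in 10 of 10 libraries). Of 7 processing genes 0 rose and 5 fell (median -0.57), among them Pam (78.5 ± 58.4 against 255 ± 107 CPM, -1.76 ± 0.17), Pcsk2 (-1.42 ± 0.22) and Qpct (-1.20 ± 0.21). Cpe (0.007 ± 0.072) and the tyrosine sulphation gene Tpst1 (0.04 ± 0.25) were not called. Of 12 dense core vesicle genes 1 rose, Syt4 by 0.56 ± 0.10, and 8 fell (median -0.52). Among those that fell were Vgf (-1.88 ± 0.27), Syt7 (-1.57 ± 0.25) and the granin gene Chgb (-0.89 ± 0.12). Cadps, Rab3a and Scg3 were not called. Of 9 genes of CCK receptor signalling 1 rose, the protein kinase C gene Prkcb by 1.63 ± 0.08 (894 ± 234 against 299 ± 41.4 CPM), and 4 fell. Of 25 transcription factor genes 10 rose and 11 fell. The amacrine marker list summed to 3176 ± 566 CPM in the Cck cells and 7193 ± 1169 below, and the ganglion cell list to 817 ± 91.2 and 491 ± 71.6, and their part in the result was not tested.

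In the Gad gate, Cpne4 and the cholinergic genes Slc18a3, Slc5a7 and Chat were higher in the Cck cells. Of 11024 genes 497 rose and 637 fell (10.3% called, edgeR, 9 libraries, 362 against 15576 cells). Cpne4 rose by 3.63 ± 0.11 (479 ± 132 against 38.8 ± 6.25 CPM), the vesicular acetylcholine transporter gene Slc18a3 by 3.25 ± 0.13 (216 ± 120 against 22.0 ± 8.76 CPM), the choline transporter gene Slc5a7 by 3.19 ± 0.20, Sox2 by 3.14 ± 0.19, Igfbp7 by 2.90 ± 0.12 and Chat, which makes acetylcholine, by 2.74 ± 0.20. Tac2 (-5.45 ± 0.23), Vip (-4.91 ± 0.30; 12.8 ± 22.5 against 393 ± 81.3 CPM), Cbln4 (-4.55 ± 0.41), Zcchc12 (-3.69 ± 0.30), Nr4a2 (-3.62 ± 0.24) and Sstr2 (-2.86 ± 0.24) fell. Cartpt was at 573 ± 526 against 2589 ± 461 CPM, lower in 9 of 9 libraries, with a log2 change of -2.48 ± 0.26 and an adjusted p of 3.02e-07 by edgeR's quasi-likelihood test. Of 13 neuropeptide genes 3 rose and 7 fell (median -2.0 against -0.03 over all genes), of 11 processing genes 0 rose and 3 fell, of 16 dense core vesicle genes 3 rose and 6 fell, and of 46 transcription factor genes 7 rose and 15 fell.

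By gated groups, Cck was highest in starburst cells. Its level there was 606 ± 150 CPM (464 through 550 to 874), a Cck UMI was found in 63.0% of 505 cells, and 104 (20.6%, interval 17.1% to 24.4%; 22.4% ± 7.98 per library) reached 0.1%. Npy-gated cells had 163 ± 48.6 CPM (65.5 to 240), with 114 of 2100 cells (5.43%) at 0.1%. Every starburst library lay above every Npy library, although a cell could meet both gates. In Gad gate cells with at least 2 UMIs of Maf, Cck ran from 14.4 to 34.5 CPM in the 6 libraries of batches 1 and 2 and from 290 to 389 CPM in the 4 of batch 3, with no overlap, and 81 of 1749 such cells reached 0.1%. Cells gated on Ebf3, Neurod2 or Slc17a8 had mean levels of 62.0, 56.3 and 44.9 CPM, and Vip-gated cells 14.0 ± 10.5 CPM, below the 26.0 ± 12.6 CPM of the AII gate on average but overlapping it. Of the 368 Cck cells of the Gad gate 104 (28.3%) met the starburst gate, 99 (26.9%) the Npy gate, 65 both and 230 (62.5%) neither.

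Cartpt and Cck rarely met in a cell. Both reached 0.1% in 43 cells, which is 1.12% of the 3835 Cartpt cells and 4.82% of the 892 Cck cells, and in 6 of them Cartpt was in the high class. Of the 43, 27 were of the Gad gate, 10 low in both, 3 of the Slc6a9 gate and 3 mixed. Within the Gad gate 7.34% of the Cck cells and 11.8% of the others had Cartpt at 0.1% or more, and within the cells low in both 2.56% and 7.50%. Over all 1148 Cartpt-high cells, the peptides of the fixed list that reached 0.1% in at least 1% of the cells were Vip in 154 (13.4%, interval 11.5% to 15.5%), Cbln4 in 126 (11.0%) and Ghrh in 14 (1.22%), while Npy did so in 10, Tac1 in 8 and Cck in 6. For the 892 Cck cells they were Npy in 114 (12.8%, interval 10.7% to 15.2%), Cartpt in 43, Tac1 in 23 (2.58%) and Pomc in 10 (1.12%). Over all 32523 cells, Npy reached 0.1% in 2100, Tac1 in 2044, Vip in 943, Ghrh in 54 and Cartpt in 11.8%. Cartpt and Tac1 were thus less frequent in the Cck cells than in all cells, and Npy more frequent. Of the 99 Cck cells of the Gad gate that met the Npy gate, 65 also met the starburst gate. Vip and Ghrh were more frequent in the Cartpt-high cells, and Npy, Tac1 and Cck less frequent. In the Cartpt-middle cells of the Slc6a9 gate Igf1 reached 0.1% in 66 of 731 (9.03%). Shares over all cells for Cbln4, Pomc and Igf1 are not reported here.

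**Figure D5:**
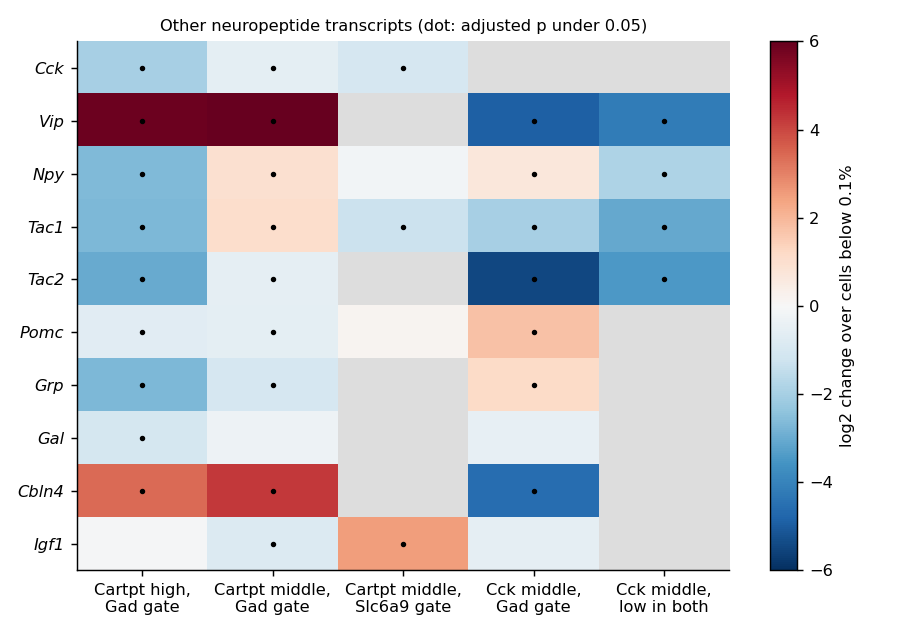
Log2 change (colour) of other peptide genes (rows) between cells with and without Cartpt or Cck in 5 comparisons (columns). A dot marks an adjusted p under 0.05 (edgeR) and grey a gene that was not tested; Vip is higher with Cartpt in the Gad gate and lower with Cck, and Igf1 is higher in the Cartpt-middle cells of the Slc6a9 gate.

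The CCK receptors were near the limit of detection. Cckar had 26 UMIs in 25 cells, in all 10 libraries, at 0.163 ± 0.115 CPM and at most 2 UMIs in a cell. Cckbr had 27 UMIs in 26 cells of 9 libraries, at 0.156 ± 0.0948 CPM. No cell had both. Cckar cells were 2 of the Gad gate, 9 of the Slc6a9 gate, 3 low in both and 11 mixed, and Cckbr cells 15, 3, 0 and 8; the 0 of Cckbr allows a share of up to 0.0561% of the 5351 cells low in both with a UMI, by counting error only, and limits no share of cells expressing the gene at their median of 1861 UMIs. Of the 26 Cckar UMIs 10 lay in the 666 cells gated on Slc17a8, the vesicular glutamate transporter VGLUT3, a pooled level of 2.31 CPM. A Cck UMI was found in 1 of the Cckar cells and 5 of the Cckbr cells, and none of either had Cck at 0.1%.

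Neither receptor passed the low-count filter of the test, so the gates were compared over libraries by exact permutation of signs. Cckar was at 0.544 ± 0.575 CPM in the Slc6a9 gate (0 to 1.63) and at 0.0183 ± 0.0401 CPM in the Gad gate (0 to 0.115), higher in 6 libraries, lower in 1 and at 0 in both gates in 3 (two-sided exact permutation p = 0.03125, adjusted p = 0.0625 over the 2 receptors). With the filter removed, edgeR called it at a log2 change of 3.68 ± 0.89 (adjusted p = 0.000621 over all genes), a value that rests on 11 UMI-bearing cells. Cckbr was at 0.186 ± 0.315 and 0.157 ± 0.130 CPM (exact permutation p = 0.734), and edgeR without the filter gave 0.41 ± 0.97 (adjusted p = 0.786). No difference in Cckbr was detected, which at this depth does not show that the gates were level.

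The genes whose levels over cells went most with Cartpt were Slc35d3 (Pearson's r 0.490), Kit (0.444), Sstr2 (0.426), Syt10 (0.425), Nr4a2 (0.417), Rprm (0.356), Iyd (0.349), Plscr1 (0.337), Ccdc109b (0.323) and E530001K10Rik (0.316). Each r is the mean of 10 within-library correlations of log2(UMIs per 10000 + 1) over cells, among 12057 genes with a UMI in at least 1% of cells, given as a description. For Cck they were Cntn6 (0.306), Nfix (0.259), Nckap5 (0.247), Nhlh2 (0.237), Cpne4 (0.221), Klc3 (0.204), Gpr149 (0.203), Kcnmb4 (0.190), Slc18a3 (0.186) and Crabp1 (0.186). Cells of a library share its depth range and its free RNA, so these values carry no p. No gene is in both lists.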

How the data were processed

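Counts are UMIs per gene and cell as deposited. The authors made them with Cell Ranger 2.1.0 on mm10, per the submitters' processing notes. The sources used here give no annotation, cell filter or doublet removal. No cell was removed, no doublets were called and no cells were clustered. The 4 genes, the gates, the gene lists and the tests were chosen with earlier results of these data known.

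UMIs were summed per library and class in Python 3.11.15 (numpy 2.4.6, pandas 2.3.3, scipy 1.17.1) and tested with edgeR 4.0.16 (glmQLFit and glmQLFTest, TMM, filterByExpr) in R 4.3.3, with the library as a block because each library gives both classes, Benjamini-Hochberg adjustment over all genes tested and a threshold of 0.05. The SE is the absolute log2 change divided by the square root of F. The gene that set a class was dropped before library sizes were taken. A library entered with at least 10 cells in each class, and a comparison needed 3 libraries; high Cartpt and middle Cck in the Slc6a9 gate had fewer and were not run, and no cell allowed a high class of Cck. Batches 2 and 3 were compared over 5 and 4 libraries; batch 1, with 1 library, entered no batch test. Shares were compared by exact permutation, and intervals are exact binomial (Clopper-Pearson), for counting error only.

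Named genes were the 8 highest and 4 lowest called genes with at least 50 CPM in the class with the higher mean and 1 direction in every library, and the 3 largest called changes of each list. Co-detected peptides were to be read at 1% Cck; since no cell reached it, 0.1% was used. Gene sequences are from RefSeq (GRCm38.p6), where 2 of the 4 genes are shown.

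On simulated counts for the Cartpt-high comparison (10240 genes), 87 of 98 genes changed by a log2 of 1 and 96 of 96 changed by 2 were called, as were 7 of 10046 unchanged genes. The simulation gave every gene the same dispersion, set by hand, and far fewer changed genes than the 31.7% called in the data. Comparisons with 3 or 5 libraries were not simulated. These rates therefore hold for the simulated setting only. Alternatives were DESeq2 1.42.0, DESeq2's size factors, no filter, no block, single batches, other thresholds and gates, leaving out libraries and leaving out marked cells. Leaving out cells with Prom1, Vip or starburst markers, the comparison of Cartpt-high cells with and without Vip, its leave-one-out fits and the receptor permutation test were chosen after seeing the data. Results for some genes are not reported here.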

Additional observations from a re-analysis of the deposited data

Results flagged for a closer look

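The Cartpt change between the Slc6a9 and Gad gates differed between batches, with an interaction of 1.89 on the log2 scale, and the values that move with it stand in the report.

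In 8 of 48 sets of library values checked, the highest library stood apart from the others, where chance would flag about 1 in 20. For Cckar these were library 8 in all cells (0.458 CPM), library 8 in the mixed cells (0.911 CPM) and library 1 in the cells low in both (1.82 CPM), values that rest on a few UMIs. For Cartpt they were library 9 in the AII gate (261 CPM), library 8 in the Npy gate (913 CPM) and library 8 in the Penk gate (384 CPM). For Cck they were library 8 in the Tac1 gate (76.8 CPM) and library 7 in the Tac2 gate (23.3 CPM).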

How the results depend on the processing

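Over all named genes and other settings, 2250 values kept their direction and their side of the threshold, 94 no longer passed the test, 2 newly passed it and 2 turned. The first count is inflated for Cartpt-high cells low in both. Their libraries 2, 4 and 6 are all of batch 2, so batch 2 alone repeats the main fit. Settings in which a gene was not tested are not counted. Those that turned were Cbln4 in Cartpt-high cells of the Gad gate without Vip cells (-1.23) and Cck in Cartpt-middle cells of the Slc6a9 gate in batch 2 alone (0.42). The Cck interaction between gates and batches, which did not pass the test, turned without cells with a Prom1 UMI (0.019). The cause was not tested.

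Counts of genes called that moved by more than 1.5 times were as follows. With DESeq2, 342 genes were called between Cartpt-high cells with and without Vip, 59 for Cartpt-high cells low in both, 1119 for Cartpt-middle cells of the Slc6a9 gate and 131 for Cartpt-middle cells low in both. With no filter, 969, 544 and 1669 were called with Vip, for Cartpt-middle and for Cck-middle cells low in both. A gate of 3 UMIs gave 397 for Cartpt-high and 352 for Cartpt-middle cells low in both, and a high class from 2% gave 98. Batch 3 alone gave 1163 for Cartpt-middle cells of the Gad gate and 53 for those low in both, and batch 2 alone 353 for Cartpt-middle cells of the Slc6a9 gate and 1751 for Cck-middle cells of the Gad gate. Leaving out cells with other-class markers gave 1265 for Cartpt-middle cells of the Gad gate, leaving out cells with a Prom1 UMI 348 for those of the Slc6a9 gate, and leaving out starburst-gated cells 677 for Cck. Leaving out 1 library at a time gave 76 to 98 for Cartpt-high cells low in both; between cells with and without Vip it gave 483 to 570, within 1.5 times of the 619 with all libraries.

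With no replicate block for the library, the Cartpt change between gates was -2.36 and the Cck change -1.04, and Cartpt-middle cells low in both gave 117 calls. It ended 14 of the calls of named genes and moved no other count of calls by over 1.5 times.

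At thresholds of 0.05% and 0.2% in place of 0.1%, Cartpt cells were 17.8% and 8.36% and Cck cells 5.20% and 1.09% of a library. At 0.5% and 2% in place of 1%, Cartpt cells were 4.94% and 2.51%, and Cck cells were 0.0617% at 0.5% and 2.44e-05% (an expected share) at 1% after thinning. The batch difference in points missed the threshold at the lower and higher limits for Cartpt at 0.1% (6.21 and 3.44) and at 1% (-0.24 and -0.46, and -0.59 after thinning) and for Cck (1.27 and 0.77). For Cartpt at 0.1% the unadjusted p stayed at 0.0159, and the adjusted p rose to 0.0635 as the other shares had larger p-values. Without 1 library it was 5.68 to 6.23, -0.81 to -0.51 and 1.32 to 1.63, and the batch 3 over batch 2 log2 changes were 0.27 to 0.39 for Cartpt and 0.50 to 0.65 for Cck. With 5 against 3 libraries no exact permutation p can be below 0.0357 before adjustment, so a lost call there says nothing about stability.

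Depth limits the receptors, at 26 and 27 UMIs in all, and the lower threshold of the peptides. Just under and just over that threshold a median cell held 2 and 3 UMIs of Cartpt, or 4 and 3 of Cck.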
